A study of Mus musculus with 16 samples.

Results

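The 10 genes described here encode effector cytokines and chemokines of CD8 T cells, the cytotoxic lymphocytes: Ifng, Tnf, Lta, Ltb, Il2, Lif, Xcl1, Ccl3, Ccl4 and Ccl5. They were taken by gene name from a table of read counts for 55335 gene identifiers, and all 10 passed the filter on low counts that left 15197 genes to test. Poly-A RNA was sequenced from 16 libraries of CD8 T cells in 4 groups of 4: Batf3 ko cells at 72 h, wild-type cells at 72 h, Batf3 ko cells at 48 h and wild-type cells at 48 h. The cells came from spleens of C57BL/6 mice that were either wild type or lacked both copies of Batf3 (Batf3-/-), and were enriched for CD8 T cells. Every group was cultured in medium with IL-15 at 50 ng/ml and stimulated with plate-bound anti-CD3e at 1 µg/ml plus anti-CD28 at 1 µg/ml, antibodies that stand in for antigen and costimulation. Batf3 encodes a small basic leucine zipper transcription factor that pairs with Jun proteins at AP-1 sites. Mice without Batf3 also lack most cross-presenting dendritic cells, so the ko T cells had developed in a host that differs from the wild type in more than its T cells. The 4 libraries within each group are technical replicates according to the submitters, and the number of mice is not given in the sources used here. The p-values below therefore measure only the spread between these libraries, and fewer cells that make a transcript cannot be told apart from less transcript per cell.

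Batf3 itself followed the labels. It averaged 0.0916 ± 0.183 CPM (read counts rescaled to a common library total) in ko cells at 72 h and 30.9 ± 2.65 in wild-type cells at 72 h (SD, n = 4 each). At 48 h it averaged 0.129 ± 0.0658 CPM in ko cells and 80.7 ± 5.86 in wild-type cells. Library totals ran from 29375818 to 39241169 counts, and a count of 0 allows up to 0.0765 to 0.102 CPM. Wild-type 72 h replicate 4 and ko 48 h replicate 4 stood apart, with root mean square differences from their group means of 0.163 and 0.175 on the log2 scale over 9191 expressed genes, against 0.082 to 0.122 in the other libraries. Besides these, ko 72 h replicate 3 held 11 Batf3 reads, where its 3 fellow libraries held 0. Its median deviation over the 10 genes, taken from the group median of each gene, was -0.49 on the log2 scale. It was the lowest of its group for 7 of the 10 genes, as were wild-type 72 h replicate 1 (median deviation -0.21) and ko 48 h replicate 2 (-0.20) in theirs. The defining markers of CD8 T cells were present: Cd8a averaged 306 CPM in ko and 345 CPM in wild-type cells at 72 h, and 286 CPM in ko and 292 CPM in wild-type cells at 48 h. Of 7 such markers 2 were higher in ko cells at 72 h (16.9% of all genes) and 2 at 48 h (4.41%), and 0 were lower at either time (adjusted p below 0.05 in edgeR). Of 3 markers of CD4 T cells, Cd4 and Foxp3 stayed under 1 CPM in every library. Zbtb7b, the third, averaged 50.6 CPM in ko and 51.3 CPM in wild-type cells at 72 h, and 24.8 CPM in ko and 20.4 CPM in wild-type cells at 48 h, where it was higher in ko cells (0.31, adjusted p = 0.0286).

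Effector cytokines are secreted or membrane-bound signals that CD8 T cells make within hours of antigen contact. Interferon gamma activates macrophages and raises antigen presentation, and tumour necrosis factor and the lymphotoxins act through death and NF-kappaB signalling receptors. Interleukin-2 feeds T cell growth, and the CC and XC chemokines draw in other leukocytes. Their genes are switched on by NFAT, NF-kappaB and AP-1 downstream of the T cell receptor. Many of their mRNAs carry AU-rich elements that shorten their life, and production falls off as the antigen signal wanes.

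Of the 10 genes, 8 had an entry in the RefSeq promoter table. The stretches before the start of Ifng, Tnf, Lta, Ltb and Lif are shown because Ifng, Lta and Lif are lower in ko cells, Ltb is higher, and Tnf, Lta and Ltb are neighbours that did not move together. They are RefSeq sequences of GRCm38.p6, written 5′ to 3′ on the strand of the gene, and capitals mark matches to an AP-1 (TGANTCA), CRE (TGACGTCA), NF-kappaB (GGG, then 2 bases of any kind, then TTTCC) or TATA box (TATAAA) motif. Bases that GENCODE places inside the gene were left out, which shortened the Ltb and Lif stretches to 182 and 239 bases, while the others hold 250 bases. The Ifng stretch is chr10:118440796-118441045 on the plus strand. Tnf is chr17:35202008-35202257 and Lta is chr17:35205352-35205601, both on the minus strand. Ltb is chr17:35194257-35194438 and Lif is chr11:4257318-4257556, both on the plus strand.
Ifng: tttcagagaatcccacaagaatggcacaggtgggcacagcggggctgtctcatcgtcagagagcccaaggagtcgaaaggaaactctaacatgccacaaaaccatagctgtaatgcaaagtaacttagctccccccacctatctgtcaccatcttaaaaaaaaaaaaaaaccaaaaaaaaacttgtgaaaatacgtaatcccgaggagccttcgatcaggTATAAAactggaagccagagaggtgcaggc
Tnf: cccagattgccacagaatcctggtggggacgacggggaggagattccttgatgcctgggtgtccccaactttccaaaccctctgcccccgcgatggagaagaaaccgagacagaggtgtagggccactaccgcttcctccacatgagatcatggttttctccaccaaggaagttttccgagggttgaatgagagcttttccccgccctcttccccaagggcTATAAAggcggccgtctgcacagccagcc
Lta: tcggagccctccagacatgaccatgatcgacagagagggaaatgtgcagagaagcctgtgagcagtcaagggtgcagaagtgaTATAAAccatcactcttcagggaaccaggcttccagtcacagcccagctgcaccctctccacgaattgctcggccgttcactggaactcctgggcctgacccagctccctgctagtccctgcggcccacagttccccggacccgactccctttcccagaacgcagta
Ltb: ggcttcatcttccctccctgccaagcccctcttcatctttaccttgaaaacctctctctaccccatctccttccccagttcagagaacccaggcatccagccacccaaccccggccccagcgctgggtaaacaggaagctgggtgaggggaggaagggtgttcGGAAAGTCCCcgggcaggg
Lif: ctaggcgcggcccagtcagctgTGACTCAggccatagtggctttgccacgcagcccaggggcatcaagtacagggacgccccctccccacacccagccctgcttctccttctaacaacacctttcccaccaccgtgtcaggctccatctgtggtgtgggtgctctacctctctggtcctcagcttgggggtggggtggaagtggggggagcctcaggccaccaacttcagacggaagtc
In the 250 bases before the RefSeq start, searched on both strands, Lif was the only one of the 8 genes with an AP-1 match, 228 to 222 bases before the start. Such a match stood in 6.75% of 32851 promoters of the same length. Ltb alone held an NF-kappaB match, 87 to 78 bases before its start, against 1.41% of all promoters, and the first 5 letters of that match are also one of the NFAT core matches. TATAAA on the sense strand stood close to the start in Ifng (30 to 25 bases before it), Tnf (29 to 24) and Il2 (31 to 26) and farther off in Lta (167 to 162), against 7.59% of all promoters. The short NFAT core GGAAA was found in all 8 genes and in 55.6% of all promoters. TTCNNNGAA, a STAT motif, was found in Ifng, Lta and Ltb and in 7.02% of all promoters. CRE matched none of the 8 and 1.55% of all promoters. Xcl1, which was also lower in ko cells at 72 h and whose stretch is not printed, held only the NFAT core among these motifs. A match is a description of the letters and not a measured binding site.

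Ko and wild-type cells differed in most of these genes at 72 h and in fewer at 48 h, and the differences ran in both directions. At 72 h, 8 of 10 genes passed the threshold (adjusted p below 0.05 in edgeR's quasi-likelihood test, Benjamini-Hochberg adjusted over 15197 genes), against 36.4% of all genes tested. Ifng, Tnf, Lta, Lif and Xcl1 were lower in ko cells, 5 of 10 against 19.5% of all genes, and Ltb, Ccl4 and Ccl5 were higher, 3 of 10 against 16.9%. At 48 h, 4 of 10 genes passed, against 7.07% of all genes: Lta and Lif were lower (2.66% of all genes) and Ltb and Ccl5 higher (4.41%). The CPM ranges of the ko and wild-type libraries did not overlap for 5 genes at 72 h, against 35.1% of all genes, and for 5 at 48 h, against 14.5%. The median size of the log2 fold change, whatever its sign, was 0.56 for the 10 genes at 72 h and 0.24 over all genes, and 0.41 and 0.14 at 48 h. With library size alone as the scaling in place of TMM, the median of all genes at 72 h shifted by -0.127, and the share of called genes that were higher was 23.4% instead of 46.4%. Relative to that shift the directions of the 8 genes called at 72 h were unchanged, and Ccl5 no longer passed (0.27, adjusted p = 0.0644).

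**Figure D1:**
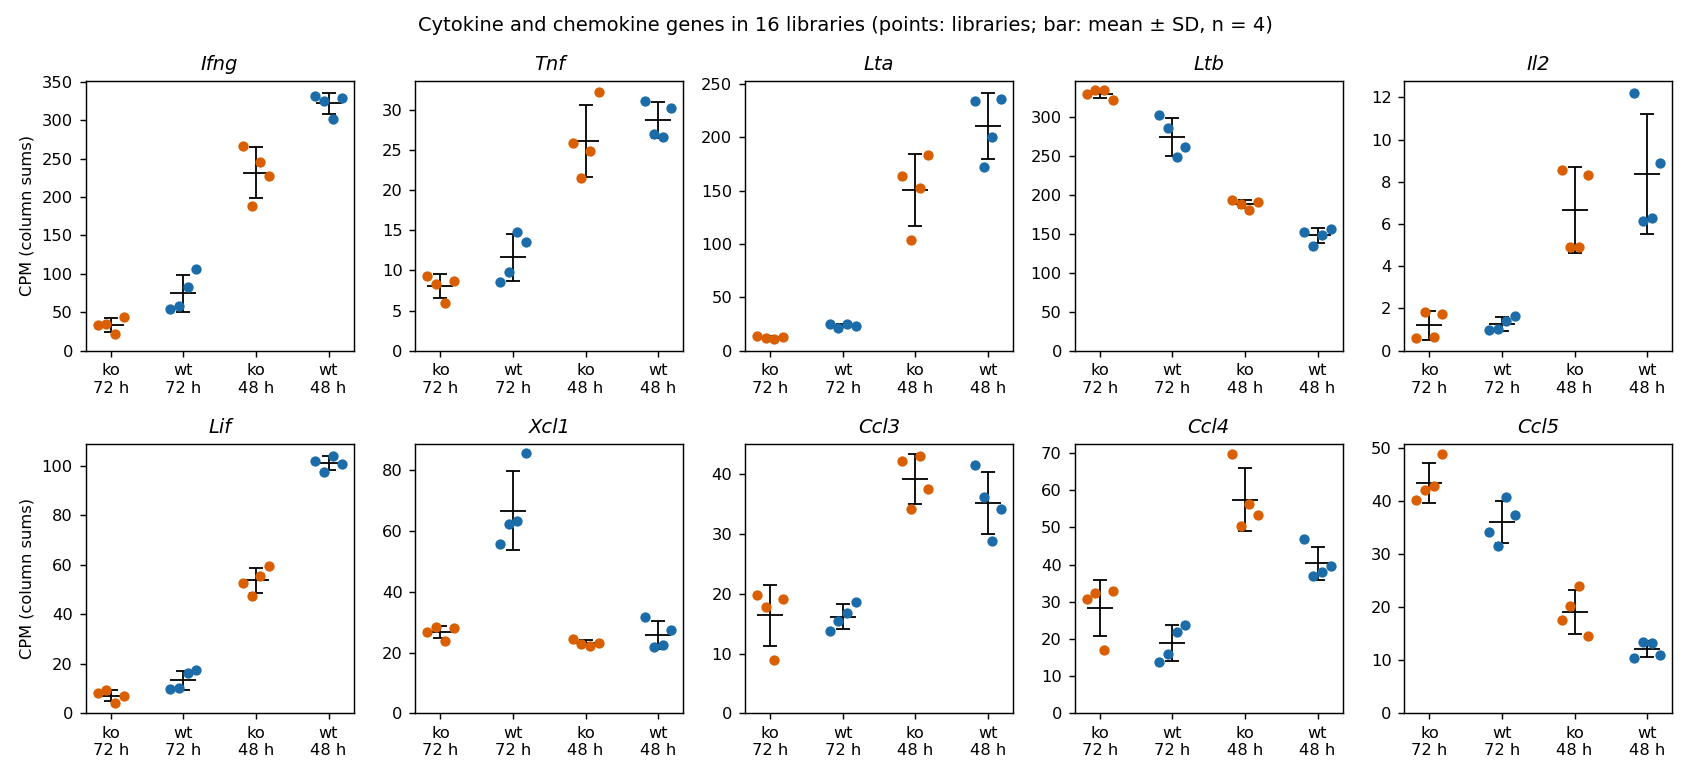
CPM of each of the 10 genes (vertical axes, linear, from 0) in the 16 libraries by group (horizontal axes: ko and wild type at 72 h, then at 48 h). Points are libraries and bars are the mean ± SD of 4. Ifng, Lta, Lif and Xcl1 sit lower in ko than in wild-type cells at 72 h without overlap, and Ltb sits higher at both times.

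**Figure D2:**
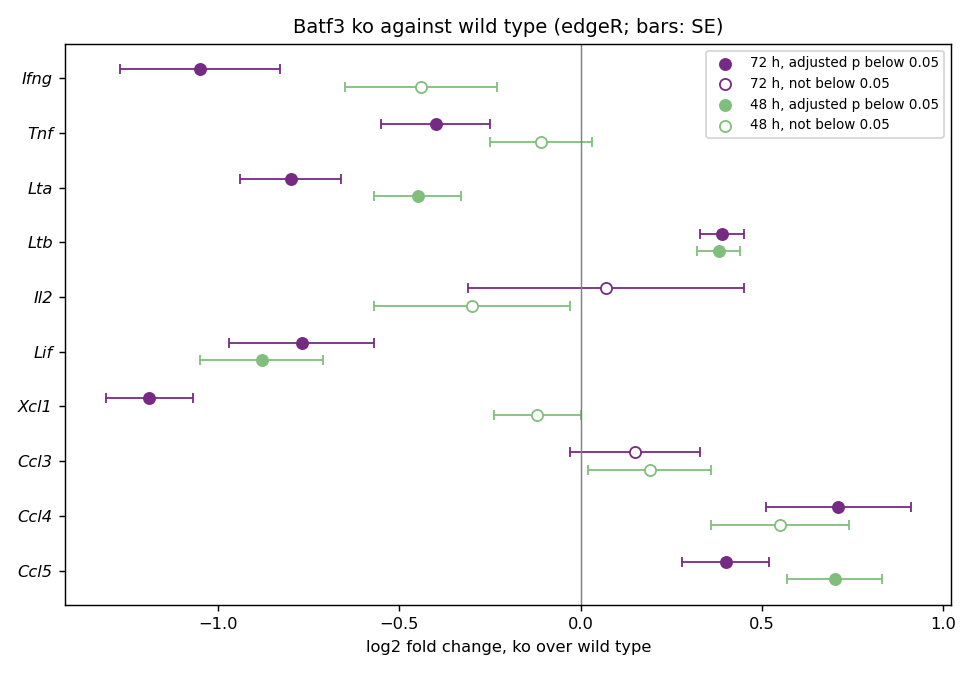
log2 fold change of ko over wild type (horizontal axis) for each gene (vertical axis) at 72 h and 48 h, from edgeR with TMM scaling; bars are the SE and filled points have an adjusted p below 0.05. Xcl1 is the gene whose points at 72 h (-1.19) and 48 h (-0.12) lie farthest apart.

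Ifng, which encodes interferon gamma, lay at 118441046-118445892 on the plus strand of chromosome 10 in GRCm38. At 72 h Ifng stood at 33.1, 34.3, 22.2 and 43.5 CPM in ko cells, against 53.9, 57.6, 82.3 and 106 CPM in wild-type cells. Every ko library was below every wild-type library. At 48 h Ifng stood at 266, 188, 245 and 227 CPM in ko cells, against 331, 325, 302 and 329 CPM in wild-type cells, again without overlap. The log2 fold change of ko over wild type was -1.05 (SE 0.22, adjusted p = 0.00251) at 72 h and -0.44 (SE 0.21, adjusted p = 0.251) at 48 h. The fit shares 1 estimate of the spread per gene over all groups. Fitted on the 48 h libraries alone the 48 h difference passed (-0.44, adjusted p = 0.00876), and likewise without a filter on low counts. The interaction of genotype and time was -0.61 (SE 0.31, adjusted p = 0.282), so the fall in ko cells is not shown to be larger at 72 h than at 48 h, although without a filter on low counts the interaction passed (-0.62, adjusted p = 5.86e-07). Without wild-type 72 h replicate 4, ko 48 h replicate 4 and ko 72 h replicate 3 the 72 h value was -0.67 (adjusted p = 0.0135). Gm49751, a gene model on the same strand, overlaps Ifng and was also lower in ko cells at 72 h (-1.38, adjusted p = 0.0284), so the reads of these 2 genes may not be separate. Gm49751 averaged 0.292 CPM in ko and 0.849 CPM in wild-type cells at 72 h, far below Ifng.

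Tnf, Lta and Ltb lie side by side within 10913 bases of chromosome 17. Ltb is at 35194439-35196320 on the plus strand, and Tnf at 35199381-35202007 and Lta at 35203165-35205351 on the minus strand. Lta encodes lymphotoxin alpha, which is secreted as a trimer or held at the cell surface by lymphotoxin beta. It stood at 13.5, 12.4, 11.3 and 12.6 CPM in ko cells at 72 h, against 24.8, 21.3, 25.2 and 23.2 CPM in wild-type cells, and the groups did not overlap. At 48 h Lta stood at 163, 104, 153 and 183 CPM in ko cells, against 234, 172, 200 and 236 CPM in wild-type cells, where the highest ko library was above the lowest wild-type library. Lta was lower in ko cells by 0.80 on the log2 scale at 72 h (log2 fold change -0.80, SE 0.14, adjusted p = 0.000175) and passed at 48 h too (-0.45, SE 0.12, adjusted p = 0.0298). The 48 h call was lost without wild-type 48 h replicate 1 (-0.40, adjusted p = 0.105), without wild-type 48 h replicate 4 (-0.39, adjusted p = 0.0908) and when only the 48 h libraries were fitted (adjusted p = 0.0907).

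Ltb encodes lymphotoxin beta, the membrane anchor of the heterotrimer that signals through the lymphotoxin beta receptor and shapes lymphoid tissue. It stood at 330, 336, 335 and 323 CPM in ko cells at 72 h, against 303, 286, 249 and 262 CPM in wild-type cells. At 48 h Ltb stood at 194, 189, 182 and 191 CPM in ko cells, against 153, 135, 149 and 157 CPM in wild-type cells. All ko libraries were above all wild-type libraries at each time, and Ltb had the narrowest spread of the 10 genes relative to its level in ko cells. The log2 fold change was 0.39 (SE 0.06, adjusted p = 4.35e-05) at 72 h and 0.38 (SE 0.06, adjusted p = 0.000443) at 48 h, with an interaction of 0.01 (SE 0.09, adjusted p = 0.973). Per unit of exon length, as TPM (CPM rescaled for exon length), the ratio of Ltb to Lta was 24.4 ± 2.04 in ko cells and 10.7 ± 1.38 in wild-type cells at 72 h, and 1.20 ± 0.320 in ko cells and 0.649 ± 0.0574 in wild-type cells at 48 h (SD, n = 4 each).

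Tnf encodes tumour necrosis factor, an inflammatory cytokine that is cut from the cell surface. It stood at 9.34, 8.30, 5.93 and 8.65 CPM in ko cells at 72 h, against 8.59, 9.75, 14.7 and 13.5 CPM in wild-type cells. At 48 h Tnf stood at 25.8, 21.6, 24.9 and 32.3 CPM in ko cells, against 31.1, 27.1, 26.6 and 30.2 CPM in wild-type cells. The groups overlapped at both times, with the lowest library of all in ko 72 h replicate 3. The 72 h difference was at the edge of the threshold (log2 fold change -0.40, SE 0.15, adjusted p = 0.0474) and the 48 h difference did not pass (-0.11, SE 0.14, adjusted p = 0.712). The 72 h call was lost in 15 of 27 alternatives. Among them were leaving out wild-type 72 h replicate 3 (-0.29, adjusted p = 0.182), wild-type 72 h replicate 4 (-0.30, adjusted p = 0.151), ko 72 h replicate 2 (-0.41, adjusted p = 0.0793), ko 72 h replicate 3 (-0.27, adjusted p = 0.185) or ko 72 h replicate 4 (-0.43, adjusted p = 0.0586). Leaving out any wild-type 48 h library, ko 48 h replicate 1 or ko 48 h replicate 3 kept the value at -0.40 with adjusted p between 0.0533 and 0.0581.

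Il2 encodes interleukin-2, the autocrine growth factor of T cells, and was the lowest of the 10 genes in every group. At 72 h Il2 stood at 0.611, 1.84, 0.633 and 1.75 CPM (21, 64, 19 and 58 reads) in ko cells, against 0.980, 1.04, 1.40 and 1.66 CPM in wild-type cells (30, 37, 41 and 52 reads). At 48 h Il2 stood at 8.54, 4.91, 4.91 and 8.30 CPM in ko cells, against 12.2, 6.13, 6.29 and 8.87 CPM in wild-type cells. The groups overlapped at both times, and at 72 h the ko libraries split into 2 near 0.6 CPM and 2 near 1.8 CPM. The log2 fold change was 0.07 (SE 0.38, adjusted p = 0.908) at 72 h and -0.30 (SE 0.27, adjusted p = 0.573) at 48 h. These SEs were the largest of the 10 genes at either time. The sign at 72 h turned without wild-type 72 h replicate 1 (-0.04), wild-type 72 h replicate 2 (-0.02), ko 72 h replicate 2 (-0.21) or ko 72 h replicate 4 (-0.15).

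Lif encodes leukemia inhibitory factor, a cytokine of the interleukin-6 family that activated T cells secrete, and lies at 4257557-4272514 on the plus strand of chromosome 11. At 72 h Lif stood at 8.06, 9.34, 4.16 and 7.20 CPM in ko cells, against 9.96, 10.4, 16.1 and 17.3 CPM in wild-type cells. At 48 h Lif stood at 52.8, 47.5, 55.3 and 59.4 CPM in ko cells, against 102, 97.6, 104 and 100.8 CPM in wild-type cells. The groups were apart at both times, narrowly at 72 h and by a wide gap at 48 h. The log2 fold change was -0.77 (SE 0.20, adjusted p = 0.00564) at 72 h and -0.88 (SE 0.17, adjusted p = 0.00421) at 48 h, and the interaction was 0.11 (SE 0.26, adjusted p = 0.866). Lif was thus the only one of the 5 genes lower at 72 h whose 48 h value was as large. Without wild-type 72 h replicate 4, ko 48 h replicate 4 and ko 72 h replicate 3 the 72 h value was -0.43 (adjusted p = 0.0205).

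Xcl1 encodes lymphotactin, the chemokine that draws XCR1-bearing cross-presenting dendritic cells, and lies at 164931644-164935527 on the minus strand of chromosome 1. Batf3 lies far from it on the same chromosome, at 191097847-191108945. At 72 h Xcl1 stood at 26.9, 28.4, 23.9 and 28.0 CPM in ko cells, against 55.8, 62.4, 63.3 and 85.5 CPM in wild-type cells. At 48 h Xcl1 stood at 24.5, 22.8, 22.2 and 23.2 CPM in ko cells, against 31.6, 21.96, 22.4 and 27.5 CPM in wild-type cells. The 72 h groups were far apart and the 48 h groups overlapped. The log2 fold change was -1.19 (SE 0.12, adjusted p = 2.39e-07) at 72 h and -0.12 (SE 0.12, adjusted p = 0.616) at 48 h. Xcl1 was the only one of the 10 genes to pass the test of the interaction of genotype and time (-1.07, SE 0.17, adjusted p = 0.00078), against 5.61% of all genes (2.08% higher and 3.53% lower). Put by time, Xcl1 was 1.35 higher (SE 0.12, adjusted p = 1.89e-09) at 72 h than at 48 h in wild-type cells, while in ko cells the value was 0.27 (SE 0.12, adjusted p = 0.0528). The ko value over time passed in 12 of 27 alternatives and ran from 0.13 to 0.33 over all of them, and the wild-type value ran from 1.19 to 1.45. Gm20743, on the opposite strand, overlaps Xcl1 and averaged 0.409 CPM in ko cells and 0.758 CPM in wild-type cells at 72 h, far below Xcl1, and the strand setting of the counting is not given in the sources used here.

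Ccl3, Ccl4 and Ccl5 encode the inflammatory chemokines MIP-1 alpha, MIP-1 beta and RANTES, and all lie on chromosome 11. Ccl3 is at 83647844-83649355 and Ccl5 at 83525778-83530518 on the minus strand, and Ccl4 is at 83662584-83664683 on the plus strand. Ccl4 stood at 30.8, 32.3, 17.1 and 33.0 CPM in ko cells at 72 h, against 13.8, 15.9, 21.9 and 23.8 CPM in wild-type cells. At 48 h Ccl4 stood at 69.7, 50.4, 56.2 and 53.4 CPM in ko cells, against 46.7, 37.0, 37.99 and 39.6 CPM in wild-type cells. At 72 h ko replicate 3 fell among the wild-type libraries and the other 3 ko libraries were above all of them, while at 48 h the groups were apart. The log2 fold change was 0.71 (SE 0.20, adjusted p = 0.0122) at 72 h and 0.55 (SE 0.19, adjusted p = 0.0998) at 48 h. Without ko 72 h replicate 3 the values were 0.90 (adjusted p = 0.000315) at 72 h and 0.53 (adjusted p = 0.0272) at 48 h. The 48 h value also passed when only the 48 h libraries were fitted (adjusted p = 0.00602), and the 72 h call was lost with offsets for each library's trend with exon length (0.49, adjusted p = 0.0909).

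Ccl3, the neighbour of Ccl4 at a gap of 13229 bases, stood at 19.7, 17.8, 8.93 and 19.1 CPM in ko cells at 72 h, against 13.8, 15.4, 16.8 and 18.6 CPM in wild-type cells. At 48 h Ccl3 stood at 42.1, 34.1, 43.1 and 37.6 CPM in ko cells, against 41.6, 36.2, 28.9 and 34.2 CPM in wild-type cells. The groups overlapped at each time and neither difference passed (0.15, SE 0.18, adjusted p = 0.57 at 72 h and 0.19, SE 0.17, adjusted p = 0.558 at 48 h). Here too ko 72 h replicate 3 decided the value at 72 h, since without it Ccl3 passed at 0.35 (adjusted p = 0.0314). With exon length offsets the value was -0.06 (adjusted p = 0.846). The TPM ratio of Ccl4 to Ccl3 was 2.04 ± 0.173 in ko cells and 1.34 ± 0.186 in wild-type cells at 72 h, and 1.70 ± 0.168 in ko cells and 1.34 ± 0.140 in wild-type cells at 48 h (SD, n = 4 each), and it was not itself tested.

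Ccl5 stood at 40.0, 42.0, 42.8 and 48.8 CPM in ko cells at 72 h, against 34.2, 31.5, 40.7 and 37.4 CPM in wild-type cells. At 48 h Ccl5 stood at 17.5, 20.2, 24.0 and 14.5 CPM in ko cells, against 10.5, 13.5, 13.3 and 11.0 CPM in wild-type cells. The groups were apart at 48 h and met at 72 h, where 1 wild-type library reached the lowest ko library. Ccl5, a chemokine that memory CD8 T cells store as message, was higher in ko cells by 0.40 on the log2 scale at 72 h (SE 0.12, adjusted p = 0.0114) and by 0.70 at 48 h (SE 0.13, adjusted p = 0.00141). The interaction was -0.30 (SE 0.17, adjusted p = 0.344). With exon length offsets the 72 h call was lost (0.21, adjusted p = 0.139).

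Natural killer cells, gamma delta T cells and myeloid cells also make Ifng, Xcl1 and the CC chemokines, so their markers were read beside these genes. All 12 NK and gamma delta T cell markers were tested. In ko cells 6 rose (16.9% of all genes) and 1 fell (19.5%) at 72 h, and 3 rose at 48 h (4.41%). Their summed level was 92.5 to 102 CPM in ko cells and 85.4 to 97.3 in wild-type cells at 72 h, and 80.5 to 97.9 in ko cells and 76.7 to 83.4 in wild-type cells at 48 h. The largest part of this sum was Eomes, the marker that fell, at 33.9 CPM in ko and 50.8 CPM in wild-type cells at 72 h. At 48 h Eomes averaged 49.0 CPM in ko and 49.6 CPM in wild-type cells. The sum at 72 h therefore hides the rise of other markers. The markers that rose at 72 h were Klre1 (18.4 CPM in ko and 9.80 CPM in wild-type cells), Klrb1c (6.92 CPM in ko and 4.38 CPM in wild-type cells), Tyrobp (3.03 CPM in ko and 1.36 CPM in wild-type cells), Fcer1g, Gpr55 and Klra4, and Klre1, Klrb1c and Fcer1g rose at 48 h too. Klra4, like Ncr1, Klra8 and Sox13, was under 1 CPM in every library. Of 18 macrophage, monocyte, granulocyte and dendritic cell markers 5 could be tested. Of these 3 were higher in ko cells at 72 h (16.9% of all genes) and 2 at 48 h (4.41%). Their summed level was 63.8 to 68.5 CPM in ko cells and 27.8 to 34.7 in wild-type cells at 72 h, and 17.5 to 20.1 in ko cells and 8.79 to 11.6 in wild-type cells at 48 h. Nearly all of it came from Ccr2 and Fcgr3 together with Cd68, while the other 15 markers were under 1 CPM in every library and Adgre1, S100a8, S100a9, Clec9a and Siglech were at 0 in all. The sum of B cell markers, almost all of it Ighm, was 304 to 334 CPM in ko cells and 223 to 293 in wild-type cells at 72 h, and 284 to 317 in ko cells and 246 to 257 in wild-type cells at 48 h. Ighm was higher in ko cells at 72 h (0.43, adjusted p = 1.69e-05) and at 48 h (0.28, adjusted p = 0.00858). Cd79b averaged 7.11 CPM in ko and 7.75 CPM in wild-type cells at 72 h without passing, and Cd79a, Ms4a1, Pax5 and Blk were under 1 CPM. The part of these cells in the levels of the 10 genes was not tested.

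With time, 7 of the 10 genes fell and Ltb and Ccl5 rose in both genotypes. In wild-type cells all 10 genes passed between 72 h and 48 h, against 63.6% of all genes: Ifng, Tnf, Lta, Il2, Lif, Ccl3 and Ccl4 were lower at 72 h, 7 of 10 against 29.9%, and Ltb, Xcl1 and Ccl5 were higher, 3 of 10 against 33.6%. In ko cells 9 of 10 passed, against 68.0% of all genes, with the same 7 lower (33.6% of all genes) and Ltb and Ccl5 higher (34.4%). At least a 2-fold change was reached by 7 genes in ko cells and by 9 in wild-type cells, where 21.9% and 17.5% of all genes were called with a change of that size. No CPM ranges of the 2 times overlapped for any of the 10 genes in wild-type cells (57.7% of all genes), nor in ko cells except for Xcl1 (58.6%).

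The largest falls were those of Lta, Lif, Ifng and Il2. Lta averaged 12.4 ± 0.890 CPM at 72 h and 151 ± 34.0 at 48 h in ko cells, and 23.6 ± 1.77 at 72 h and 211 ± 30.6 at 48 h in wild-type cells (SD, n = 4 each). The log2 fold changes were -3.53 (SE 0.14, adjusted p = 1.74e-14) in ko and -3.18 (SE 0.14, adjusted p = 8.29e-14) in wild-type cells. Lif changed by -2.83 (SE 0.19) in ko and -2.94 (SE 0.18) in wild-type cells, and Il2 by -2.38 (SE 0.32) in ko and -2.75 (SE 0.32) in wild-type cells. Ifng, at -2.74 (SE 0.23, adjusted p = 9.33e-08) in ko and -2.13 (SE 0.22, adjusted p = 1.2e-06) in wild-type cells, lay below Il2 in ko cells and above it in wild-type cells. Tnf, Ccl3 and Ccl4 fell less: Tnf changed by -1.63 in ko and -1.33 in wild-type cells (SE 0.15 each), Ccl3 by -1.19 and Ccl4 by -0.96 in ko cells, and Ccl3 by -1.15 and Ccl4 by -1.12 in wild-type cells. Ltb rose by 0.87 in ko and 0.86 in wild-type cells (SE 0.06 each), and Ccl5 by 1.25 (SE 0.12) in ko and 1.55 (SE 0.13) in wild-type cells. Apart from Xcl1, none of these genes passed the test of a different time course in the 2 genotypes, and 0 of the 10 had a positive interaction in edgeR even at an unadjusted p below 0.05.

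**Figure D3:**
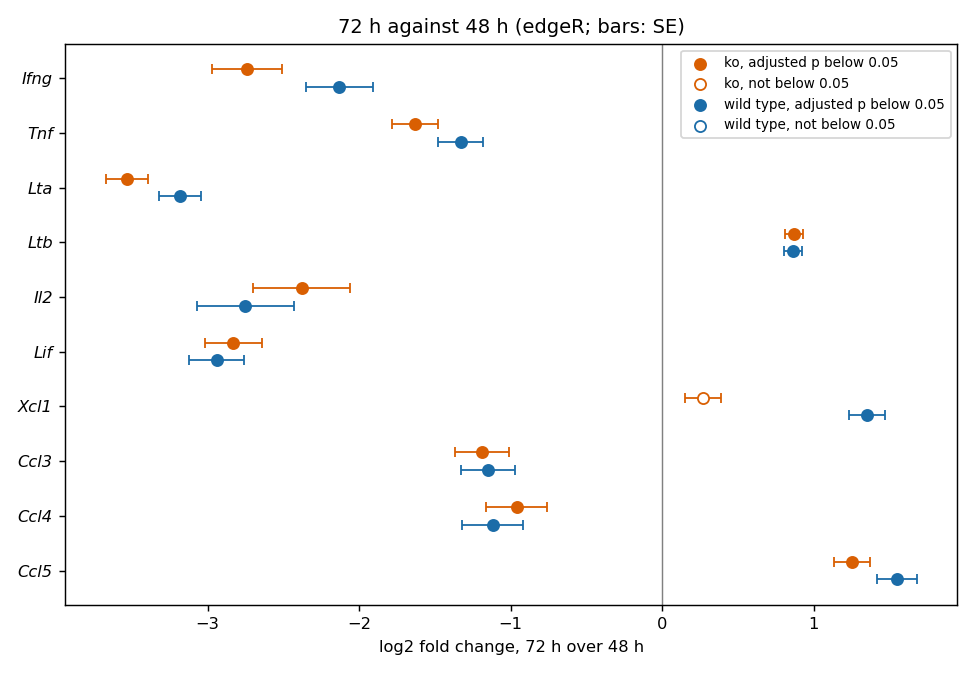
log2 fold change of 72 h over 48 h (horizontal axis) for each gene (vertical axis) in ko and wild-type cells, from edgeR; bars are the SE and filled points have an adjusted p below 0.05. Lta, Lif, Il2 and Ifng lie farthest to the left, and Xcl1 is the gene whose ko (0.27) and wild-type (1.35) points are farthest apart.

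**Figure D4:**
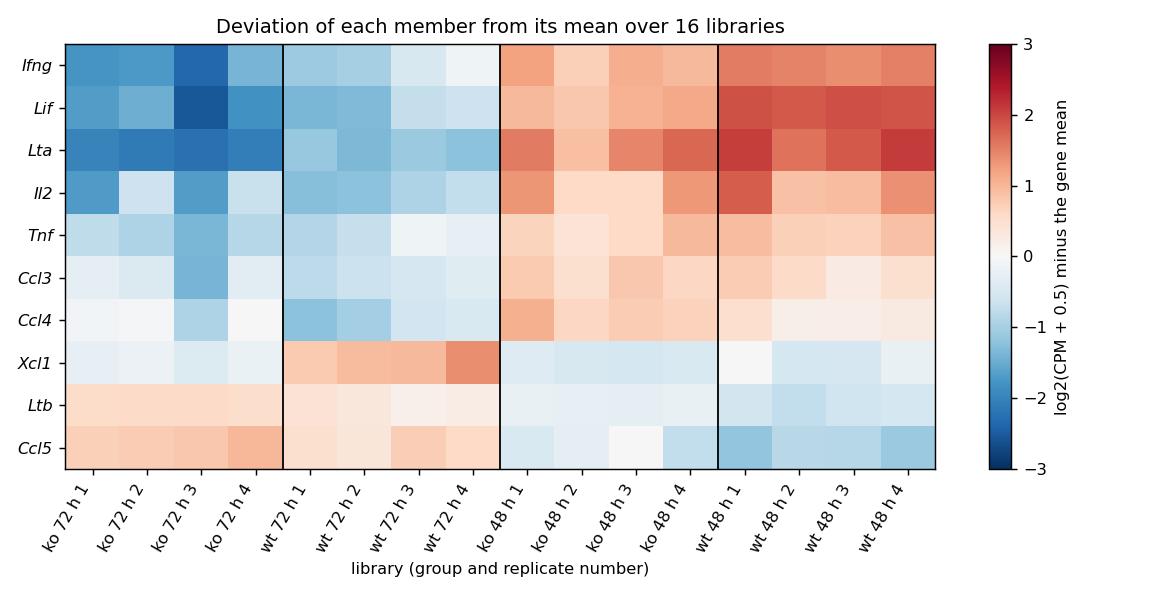
Each cell gives log2(CPM + 0.5) of a gene (rows) in a library (columns, ko and wild type at 72 h, then at 48 h) minus the gene's mean over 16 libraries, as coloured on the scale from -3 to 3. The rows from Ifng to Ccl4 are lower at 72 h, the rows Xcl1, Ltb and Ccl5 are not, and ko 72 h replicate 3 is the lowest of its group for 7 genes.

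The levels of different genes can be compared only per length, so their order was read in TPM. At 72 h Ltb led in ko cells (407 ± 7.48 TPM), clear of the next gene. It was followed by Xcl1 (95.8 ± 7.99), Ccl5 (84.4 ± 7.09), Ccl4 (80.2 ± 21.8), Ifng (48.0 ± 12.8) and Ccl3 (40.1 ± 12.6), whose neighbours in that order overlapped. Then came Lta (16.8), Tnf (9.20), Lif (3.10) and Il2 (1.97), of which the last 2 overlapped. In wild-type cells at 72 h Ltb (362 ± 40.8 TPM) and Xcl1 (253 ± 37.2) were each apart from the next gene. Ifng (115 ± 32.4), Ccl5 (74.7), Ccl4 (56.7), Ccl3 (42.0) and Lta (34.2) overlapped with their neighbours. Tnf (14.1), Lif (6.15) and Il2 (2.202) came last and apart. At 48 h Ifng led in both genotypes, at 359 ± 53.6 TPM in ko cells and 518 ± 25.2 in wild-type cells. Behind it came Ltb (250 ± 10.4) and Lta (220 ± 54.8) in ko cells, which overlapped, but Lta (317 ± 48.4) and then Ltb (204 ± 14.5) in wild-type cells, which did not. Together the 10 genes took 508 ± 24.7 CPM in ko and 537 ± 35.0 CPM in wild-type cells at 72 h, and 797 ± 79.5 CPM in ko and 932 ± 60.9 CPM in wild-type cells at 48 h (SD, n = 4 each).

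Of 14 genes for receptors of these signals 13 were tested. Between genotypes 4 passed at 72 h (36.4% of all genes) and 2 at 48 h (7.07%). At 72 h Ifngr1, the ligand-binding chain of the interferon gamma receptor, was higher in ko cells (0.26, adjusted p = 0.00374), as was the chemokine receptor gene Ccr1 (0.87, adjusted p = 0.0327). Il2rb, the beta chain shared by the interleukin-2 and interleukin-15 receptors, was lower (-0.19, adjusted p = 0.0178). The single fall became 0 without wild-type 72 h replicate 1 and 2 without ko 48 h replicate 4. At 48 h Ifngr1 was among the 2 that were higher (0.33, adjusted p = 0.00373). No receptor was lower at 48 h in edgeR, though 2 were at an unadjusted p below 0.05 and 1 in DESeq2. Il2ra, the inducible alpha chain, did not pass at either time (0.03, adjusted p = 0.704 at 72 h and -0.12, adjusted p = 0.247 at 48 h). Ltbr, Xcr1 and Ccr3, the receptors for lymphotoxin beta, lymphotactin and CCL5, averaged under 1 CPM in every group, and Lifr was not tested.

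Other cytokine genes also passed in both directions. Of 28 genes in a list of other cytokines and TNF family ligands 22 were tested. At 72 h 6 had risen (16.9% of all genes) and 12 had fallen (19.5%) in ko cells. The median log2 fold change was -0.48, against -0.02 over all genes. Il21 (3.48), which supports B cells and CD8 T cells, and the regulatory cytokine Il10 (2.78) were the largest rises, and the type 2 cytokine Il13 (-2.70), the myeloid growth factor Csf2 (-2.09) and Il24 (-1.31) were the largest falls of genes above the limit set by a count of 0. Il17a fell as well, at 0.0218 CPM in ko cells, below that limit, and 0.148 CPM in wild-type cells, near it. Il21 stayed low, averaging 0.517 CPM in ko and 0.0492 CPM in wild-type cells at 72 h, the latter below that limit. At 48 h Il21 averaged 0.520 CPM in ko and 0.130 CPM in wild-type cells, the latter near it. The size and rank of its rise are therefore uncertain at both times. Csf2 averaged 1.24 CPM in ko and 5.79 CPM in wild-type cells at 72 h (adjusted p = 1.27e-07), and 5.98 CPM in ko and 6.99 CPM in wild-type cells at 48 h (-0.19, adjusted p = 0.576), with an interaction that passed (adjusted p = 0.000325) like that of Xcl1. In all, 6 genes of the list passed the interaction in that direction, against 3.53% of all genes. At 48 h 4 genes of the list were higher in ko cells (4.41% of all genes), Il10 (2.24), Il21 (2.01), Tnfsf9 (1.17) and Tnfsf10 (0.36). The count was 2 once ko 48 h replicate 1, or replicate 3 or 4 of the wild-type 48 h group, was left out. Of 15 other chemokine genes 4 were tested. Of these Cklf (0.40, adjusted p = 0.0068) was the 1 higher at 72 h (16.9% of all genes), and without wild-type 72 h replicate 2 the count was 2. In 10 of the 16 fits that left out 1 library each, Cx3cl1 (0.133 CPM in ko and 0.429 CPM in wild-type cells at 72 h), which had not passed the filter on low counts, was tested and called lower.

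Transcription factors and signalling genes known to act on cytokine genes also differed at 72 h. Of 34 genes 33 were tested, and at 72 h 6 rose (16.9% of all genes) and 15 fell (19.5%) in ko cells (median -0.18). Egr3 (-1.54, adjusted p = 1.5e-07), Egr2 (-1.39, adjusted p = 0.000192) and Nr4a3 (-1.38, adjusted p = 2.23e-12), immediate early factors of antigen receptor signalling, were the largest falls, followed by Nr4a2 (-1.07, adjusted p = 2.02e-08) and Nr4a1 (-0.71, adjusted p = 1.59e-07). The repressor gene Bcl6 (1.30, adjusted p = 0.000166) was the largest rise. Without wild-type 72 h replicate 4 the 6 rises became 3. At 48 h 3 were higher (4.41% of all genes), Prdm1 (0.92), Batf (0.26) and Jund (0.22), and 3 lower (2.66%), Nr4a3 (-0.56), Nfatc2 (-0.32) and Stat4 (-0.22). The 3 falls became 1 when replicate 1 of either 48 h group was left out, 6 without ko 48 h replicate 4 and 5 without ko 72 h replicate 3, and the 3 rises became 5 without wild-type 72 h replicate 4. Tbx21 and Eomes, the T-box factors that drive Ifng, differed from each other: Eomes was lower at 72 h (33.9 CPM in ko and 50.8 CPM in wild-type cells, -0.46, adjusted p = 4.76e-05) and Tbx21 did not pass (39.6 CPM in ko and 46.8 CPM in wild-type cells, -0.11, adjusted p = 0.265).

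Genes induced by the cytokines passed in both directions at 72 h, as did 36.4% of all genes (16.9% higher and 19.5% lower). At 48 h 4.41% of all genes were higher and 2.66% lower. Of 17 genes known to be induced by interferon gamma 16 were tested, and at 72 h 3 were higher in ko cells, Gbp2 (0.40), Gbp3 (0.31) and Cd274 (0.28), and 3 lower, among them Gbp6 (-0.42) and Psmb8 (-0.18), with a median of 0.03 against -0.02 over all genes. The 3 rises became 1 without ko 72 h replicate 4 and also without wild-type 72 h replicate 1, and the 3 falls 5 without ko 48 h replicate 4. At 48 h Gbp2 (-0.40, adjusted p = 0.00426) and Igtp (-0.21, adjusted p = 0.0235) were lower, a count of 1 when replicate 1 or 2 of the ko 48 h group, or replicate 1, 2 or 4 of the wild-type 48 h group, was left out. Gbp2, a guanylate binding protein gene, thus changed sign between the times (interaction adjusted p = 0.000334), with 63.3 CPM in ko and 52.4 CPM in wild-type cells at 72 h, and 68.8 CPM in ko and 93.1 CPM in wild-type cells at 48 h. Of 11 genes known to be induced by TNF receptors through NF-kappaB, all tested, 3 were higher at 72 h, Bcl3 (0.76), Traf1 (0.64) and Tnfaip3 (0.23), and 3 lower, Nfkbie (-0.38), Nfkb2 (-0.38) and Nfkbia (-0.23). At 48 h Bcl3 (0.67) and Traf1 (0.22) were higher, a count of 1 once ko 48 h replicate 4, or replicate 1 or 2 of the wild-type 48 h group, was left out.

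AU-rich elements in the 3′ UTR, read as the pentamer ATTTA in the longest annotated UTR of each gene, were counted in each of the 10 genes. Counts were 6 in Ifng, 8 in Tnf, 3 in Lta, 7 in Il2, 7 in Lif, 5 in Ccl3 and 2 in Ccl4, the 7 genes lower at 72 h in both genotypes. They were 0 in Ltb, 0 in Ccl5 and 1 in Xcl1, the 3 genes that were higher at 72 h than at 48 h in wild-type cells. In the short Xcl1 UTR of 141 bases that makes 7.09 per kb, within the range of the 7 lower genes (2.2 to 12.2 per kb). The median density was 6.86 per kb in the 10 genes and 1.28 per kb in 12039 tested protein-coding genes, and 7 of the 10 (70.0%) had over 4 per kb, against 10.6% of those genes. Density did not order the falls: Lif, with 2.2 per kb, changed by -2.94 in wild-type cells, and Ccl3, with 12.2 per kb, by -1.15. Over all 1276 tested genes with over 4 per kb, 29.7% were higher and 36.4% lower at 72 h in wild-type cells, and over 3708 genes with no pentamer 34.9% were higher and 32.8% lower. Of 12 genes for RNA-binding proteins known to act on cytokine transcripts, 3 were higher in ko cells at 72 h (16.9% of all genes), Zfp36 (0.45, adjusted p = 0.0099), Zc3h12d (0.32) and Zfp36l2 (0.28). At the same time 5 were lower (19.5% of all genes), among them Zc3h12a (-0.47, adjusted p = 0.000989), which encodes the RNase regnase-1, Khsrp (-0.37) and Hnrnpd (-0.35). At 48 h edgeR called 0 of the 12, with 5 at an unadjusted p below 0.05, 3 in DESeq2 and 1 in limma-voom.

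**Figure D5:**
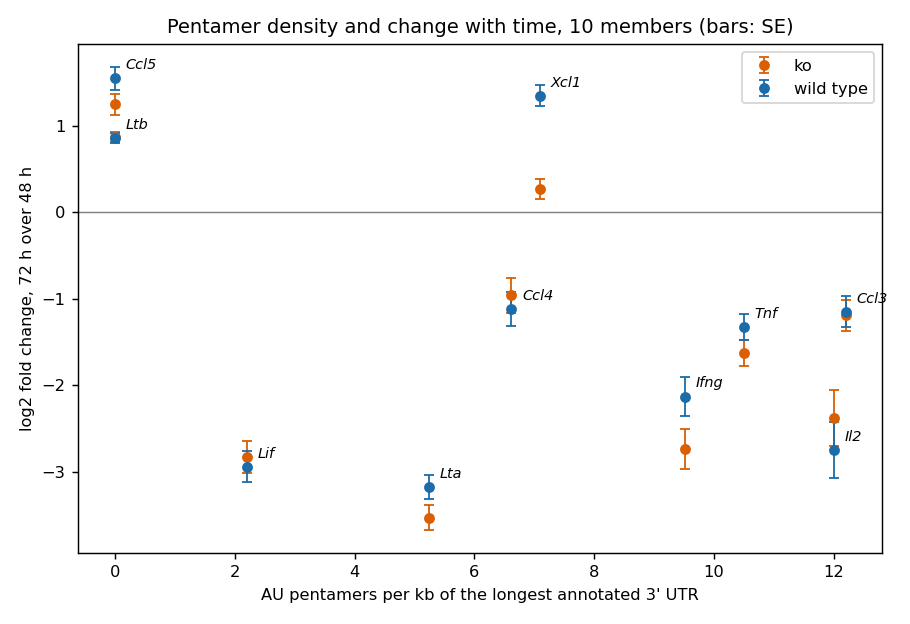
AU pentamers per kb of the longest annotated 3′ UTR (horizontal axis) and log2 fold change of 72 h over 48 h (vertical axis) for the 10 genes in ko and wild-type cells; bars are the SE. Ltb and Ccl5, at 0 per kb, are above 0, and Xcl1 (7.09 per kb) is the other gene above 0.

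Annotated neighbours of the 10 genes were read in the same fit. Around Ifng, within 100000 bases, 5 annotated genes were tested, and the antisense RNA Ifngas1, at a gap of 56143 bases, was higher in ko cells at 72 h (0.71, adjusted p = 0.00256) where Ifng was lower. Around Ltb, 16 were tested, 4 higher (16.9% of all genes) and 4 lower (19.5%) at 72 h. Tnf and Lta are 2 of the lower ones. Lst1, 6000 bases away, was higher in ko cells (0.82, adjusted p = 0.000474). Around Lif, 6 were tested, 2 higher and 0 lower at 72 h. Among the higher ones was Osm (0.56, adjusted p = 7.12e-05), which encodes the cytokine oncostatin M and lies 16531 bases from Lif. Il21, 96800 bases from Il2, was the called one of the 3 tested neighbours of Il2. Around Ccl5, 4 were tested, and Taf15, 19035 bases away, was lower in ko cells at 72 h (-0.47, adjusted p = 5.35e-06).

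Likeness of pattern was measured as the root mean square difference between centred log2(CPM + 0.5) profiles over the 16 libraries, which share depth and groups, among 4166 protein-coding genes; it is given as a description. The closest pair among the members was Ccl3 and Ccl4 (0.283), followed by Tnf and Ccl3 (0.308), Ifng and Lif (0.318), Ltb and Ccl5 (0.356) and Lta and Lif (0.378). Nearest to Ifng over all candidates was Srm (0.307), then Lif (0.318) and Nolc1 (0.319), and nearest to Tnf were Lrrc14 (0.175), Bysl (0.179) and Nagpa (0.182). Nearest to Ltb were Unc119b (0.075), Cdkn2d (0.099) and Mpst (0.103), and nearest to Ccl5 were Adam8 (0.172), Sytl2 (0.173) and Id2 (0.185). Xcl1 was nearest to Adamts6 (0.276), Nr4a2 (0.304) and Hmgcs1 (0.304). Nr4a2 passed edgeR's test of the interaction of genotype and time (adjusted p = 3.58e-06). It was picked for its likeness to Xcl1 in these same libraries, so that result is not separate evidence. Lta was nearest to Lif (0.378), Iigp1 (0.405) and Srm (0.458), Lif to Ifng, Srm (0.371) and Lta, and Il2 to Mat2a (0.352), Nfkbid (0.374) and Grwd1 (0.381). Ccl3 was nearest to mt-Nd1 (0.211), Dolk (0.216) and mt-Nd2 (0.227), and Ccl4 to Tfpi (0.267), Ccl3 and Tmem267 (0.298).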

How the data were processed

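Poly-A RNA from CD8 T cells was sequenced in 16 libraries, made with a stranded kit, per the labels' protocols. The tools named in the submitters' processing notes are STAR 2.7, bcl2fastq 2.2.0 and featureCounts, with GRCm38 as the build. The authors deposited raw read counts per gene, whole numbers, for 55335 identifiers, not normalized. How strand and multiply matching reads were handled in the counting is not given in the sources used here: overlapping genes and near-identical copies are therefore uncertain. Groups came from the labels.

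CPM were computed from column sums and TPM from exon lengths of GENCODE M21 (GRCm38). Folds came from edgeR 4.0.16, run under R 4.3.3 (filterByExpr at 10 counts; TMM scaling; two-sided quasi-likelihood F test with robust fitting) on all 16 libraries, with Benjamini-Hochberg adjustment over 15197 genes and a threshold of 0.05. An SE is the size of the log2 fold change over the square root of F. The SE reflects the spread between these libraries, and the limits for a count of 0 cover counting error only. No 2 libraries of a group agreed within sampling noise (24 pairs, chi-square test).

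The 10 genes, the 14 gene lists and the naming rule were chosen with earlier results of these data known. By that rule all members were named, with up to 6 called genes per list and comparison, tested neighbours, and the 3 nearest profiles. Alternatives were other scalings, DESeq2 1.42.0, limma-voom (limma 3.58.1), other filters, a replicate block, fits restricted to the groups compared, exon length offsets, and leaving out libraries. A few genes of these lists that the rule would name are not reported here by name, and the counts of the lists include them.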

Additional observations from a re-analysis of the deposited data

Results flagged for a closer look

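Ccl4 stood at 17.1 CPM in ko 72 h replicate 3, far below the 30.8 to 33.0 CPM of the other 3 ko libraries at 72 h. Its gap to the nearest of them took 0.864 of the range of the group, above Dixon's critical value for 4 libraries. Of 40 groups of 4 libraries checked this was the 1 found. Chance alone gives about 1 in 20, a rate that 1 in 40 does not exceed. The median deviation of the 10 genes from the group median was -0.49 on the log2 scale in the same library, which was the ko 72 h library with Batf3 reads, 11 in number. What sets it apart was not tested.

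The effect of the genotype on Xcl1 differed between the times. The interaction of genotype and time was -1.07 on the log2 scale (edgeR's quasi-likelihood test, adjusted p = 0.00078). All 4 ko libraries were below all 4 wild-type libraries at 72 h, and at 48 h the groups overlapped. Over the alternatives run the value stayed between -1.18 and -0.88.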

How the results depend on the processing

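Each result was recomputed under 27 alternatives (26 for the interaction). Of 1340 recomputed fold changes of the 10 genes, 1268 kept their direction and their side of the threshold, 23 passed where they had not, 21 no longer passed and 28 turned sign. In wild-type cells over time 10 of 10 genes passed in every alternative run. The number of the 10 genes called ran from 6 to 8 for ko against wild type at 72 h, from 3 to 6 at 48 h and from 9 to 10 over time in ko cells. The interaction count of 1 became 3 with no filter on low counts, by Ifng and Lta, and ran from 1 to 2 with each library left out, with ko 48 h replicate 2 giving 2. The sign turns between genotypes were those of Il2 at 72 h (main value 0.07), with -0.05 under library size alone, -0.07 in limma-voom, -0.09 with exon length offsets, -0.04 without wild-type 72 h replicate 1, -0.02 without wild-type 72 h replicate 2, -0.21 without ko 72 h replicate 2 and -0.15 without ko 72 h replicate 4 (0.44 without the 3 doubted libraries), and of Ccl3 at 72 h, with -0.06 under exon length offsets; the cause was not tested. The other turns were in interactions of genes that passed in no alternative run: Ltb (-0.08 under library size alone, -0.04 with exon length offsets, -0.05 to 0.05 with each library left out, -0.01 without both libraries that stood apart and -0.02 without all 3 doubted ones), Ccl3 (0.01 and 0.20 without those; -0.15 to 0.18 with each library left out), Lif (-0.04 to 0.48 over all alternatives) and Tnf (-0.42 to 0.01); the cause was not tested. The fit without all 3 doubted libraries was chosen after seeing the data.

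Over all genes, the count of calls at 48 h moved most as a ratio: 670 higher and 405 lower genes became 302 to 1059 and 171 to 896 with each library left out, 1379 and 1173 without both libraries that stood apart, and 1455 and 1311 without ko 72 h replicate 3 as well, while DESeq2 gave 830 lower. Library size alone gave 1463 higher and 4779 lower genes at 72 h, and 183 and 1230 for the interaction, where DESeq2 gave 569 higher and leaving out each library 158 to 407 and 233 to 649. At 48 h the share of calls that were higher was 62.3%, and 48.3% with library size alone.

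The replicate numbers did not pair the libraries: deviations of same-numbered libraries correlated above 0.1 in 9 of 24 pairs (-0.599 to 0.294), and 5 of 16 libraries correlated best with their own number. With the replicate number as a block, 4 of the 10 genes passed at 48 h, 8 at 72 h and 10 over time in ko cells, where Xcl1 stood at 0.27 (adjusted p = 0.0418).

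Depth limits Il2 most, with 19 to 64 reads per library at 72 h.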
